A study of Mus musculus with 6 samples.

Results

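Interferon-stimulated genes are the genes that cells switch on when interferon binds its receptor, and 50 of them, named by mouse symbol, were followed here in mouse natural killer (NK) cells. The deposited table holds 8520 genes, and 42 of the 50 were in it. The other 8 (Isg15, Ifit3, Rsad2, Bst2, Isg20, Oas2, Oasl2 and Iigp1) were not analysed here. RNA was sequenced from 2 populations of untreated C57BL/6 NK cells, which came from animals of 6 to 8 weeks (20 C57BL/6Ncr mice gave their spleens) and were sorted as CD3-negative and NK1.1-positive. One carried the receptor Ly49G and lacked Ly49C/I (called Ly49G+), the other carried Ly49C/I and lacked Ly49G (called Ly49I+), and each gave 3 libraries. The labels call them biological replicates without saying how many mice fed each one, so every p-value here reflects library-to-library spread, which may be technical.

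Type I interferons act through the receptor chains IFNAR1 and IFNAR2, the kinases JAK1 and TYK2 and a complex containing STAT2 and IRF9 that binds interferon-stimulated response elements in promoters. The genes so induced encode sensors of viral nucleic acid, transcription factors that extend the response, enzymes that modify proteins, and effectors that block virus replication. NK cells respond to type I interferon with stronger killing and survival, and also keep a low level of many of these RNAs without infection.

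The response element has a core of GAAA, any 2 bases and GAAA, which was searched on both strands of the RefSeq promoter windows (GRCm38.p6, the assembly that mm10 represents), each 300 bases long from 250 before to 50 after a gene start. Of the 42 measured genes 34 had a window, and 15 of these (44.1%) held the core in at least 1 window, against 3.99% of all 27025 genes with a window and 4.08% of the 6842 such genes in the deposited table. The core of the gamma-activated sequence (TTC, any 3 bases and GAA) was in a window of 10 of the 34 (29.4%). It was in a window of 9.55% of all genes and 8.56% of those in the deposited table. The motifs were counted separately even where they overlap. A match describes the letters only. The 250 bases before the start are shown for the 3 genes with the smallest p in the comparison below, with the response element core in capitals where it occurs.
Ifit1, chr19:34640639-34640888, plus strand: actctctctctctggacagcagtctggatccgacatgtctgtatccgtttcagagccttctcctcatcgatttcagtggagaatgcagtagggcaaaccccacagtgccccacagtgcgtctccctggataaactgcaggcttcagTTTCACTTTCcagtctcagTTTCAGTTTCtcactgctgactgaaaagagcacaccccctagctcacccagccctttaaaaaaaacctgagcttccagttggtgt
Ifi203, chr1:173942493-173942742, minus strand: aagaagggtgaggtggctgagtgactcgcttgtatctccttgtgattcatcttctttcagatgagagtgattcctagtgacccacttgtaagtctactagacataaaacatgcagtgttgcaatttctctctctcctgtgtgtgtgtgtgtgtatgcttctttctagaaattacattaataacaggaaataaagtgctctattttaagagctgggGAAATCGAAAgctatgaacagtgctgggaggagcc
Ifi44, chr3:151749911-151750160, minus strand: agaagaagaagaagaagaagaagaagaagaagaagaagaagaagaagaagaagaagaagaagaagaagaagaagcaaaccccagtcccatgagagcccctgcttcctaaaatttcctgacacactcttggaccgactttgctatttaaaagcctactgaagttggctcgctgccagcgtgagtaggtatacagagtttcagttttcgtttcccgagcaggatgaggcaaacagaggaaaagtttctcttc

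Ifit1 held 2 cores, from 104 to 95 and from 85 to 76 bases before the start, both read as the reverse complement on the gene's strand. Ifi203 has 2 windows, and the one shown held 1 core, from 35 to 26 bases before the start. No core was in the Ifi44 window. Sites of 30 bases from 4 genes of other roles follow, to show how the core varies among the members.
Stat2, chr10:128270266-128270295, plus strand: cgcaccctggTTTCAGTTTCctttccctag
Oas1a, chr5:120907523-120907552, minus strand: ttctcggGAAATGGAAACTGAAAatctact
Irgm1, chr11:48871428-48871457, minus strand: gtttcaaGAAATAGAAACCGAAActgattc
Gbp2, chr3:142620594-142620623, plus strand: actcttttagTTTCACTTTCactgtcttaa
Oas1a and Irgm1 each held 2 overlapping cores. Among the 15 genes with a core the median log2 difference of Ly49G+ minus Ly49I+ was 0.12, and among the 19 with a window and no core it was 0.02. This split was not tested, and the 8 members with no window are in neither set. Ifi44, with the largest difference of the members, is in the set with no core.

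Values are counts per 1000000 reads of the library (CPM), taken from the deposited log2 values, and differences are on the log2 scale, Ly49G+ minus Ly49I+. Library totals ran from 33599679 to 40892154 reads, and reads for the 42 genes ran from 200 to 86128 in a library. The 14 defining NK markers, Ncr1 and Klrb1c among them, were all measured, with summed levels of 16296 to 16548 CPM in Ly49G+ and 17052 to 17731 CPM in Ly49I+. In the limma test 1 of them (Eomes) was higher in Ly49G+ and 3 (Tbx21, Gzmb and Prf1) in Ly49I+. Of all genes 1.82% were higher in Ly49G+ and 1.77% in Ly49I+ in that test. Of 11 measured markers of monocytes, macrophages and dendritic cells 9 were higher in Ly49I+, with a median log2 difference of -4.04 over the 11. Their summed level was 1060 to 1176 CPM in Ly49G+ and 1164 to 2093 CPM in Ly49I+, most of it from Itgax, which NK cells also express (means of 1080 and 901 CPM, not past the test). Without Itgax the sum was 23.2, 35.8 and 56.7 CPM in the Ly49G+ replicates and 337, 1162 and 259 CPM in the Ly49I+ replicates. Every gene in the table has a second-highest library value of at least 10.0 CPM. With such low sums in Ly49G+, most of these markers could not be listed without their Ly49I+ values. Their count and median difference are therefore not independent of that. Of 8 measured T cell markers 5 were higher in Ly49G+, with summed levels of 374 to 449 CPM against 261 to 276 CPM. Their largest log2 difference was 3.78, and a marker low in Ly49I+ may be listed through Ly49G+ alone. So this count may not be independent of that either. Of 5 B cell markers 1 was higher in Ly49G+ (323 to 455 CPM against 208 to 462 CPM), and of 2 markers of plasmacytoid dendritic cells, a main source of interferon, 0 passed (322 to 362 CPM against 338 to 438 CPM). No measured marker was at 0 in any library, and 8 erythroid and platelet markers were not analysed here. In sorted bulk RNA fewer cells of a type and less RNA per cell cannot be told apart, and the part of these other cells in the values below was not tested.

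With limma 0 of the 42 interferon-stimulated genes had an adjusted p under 0.05. Over all genes 3.59% passed, 1.82% higher in Ly49G+ and 1.77% higher in Ly49I+. By unadjusted p 6 of the 42 were under 0.05 (14.3%), against 19.8% of all genes. Of the 6, 5 had the higher mean in Ly49G+ (9.59% of all genes) and 1, Ifi35, in Ly49I+ (10.2% of all genes). Other limma settings gave 0 to 3 of the 42 past the adjusted threshold, and a p that misses it does not show that the populations are alike. The median difference over the 42 was 0.04, against -0.02 over all genes, with 27 differences above 0 (46.5% of all genes were) and 15 below. The 95% interval lay within 1.5-fold in either direction for 39 of the 42 (92.9%), against 84.8% of all genes, and within 2-fold for 41, against 97.7% of all genes. The 3 whose interval reached past 1.5-fold were Ifi44, Ifit1 and Usp18, each toward Ly49G+, and Ifi44 alone reached past 2-fold. With the replicate number as a block, 3 of the 42 passed, Ifi203, Ifit1 and Ifi44, all higher in Ly49G+. Of all genes 5.69% passed in that direction and 5.96% in the other. Ifi44, also among the 5 above, has a place in the table that rests on Ly49G+, as described below. Its direction is not independent of that. The deviations of the libraries do not show that same-numbered libraries are pairs, so each p-value given with this block holds only if they are.

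**Figure D1:**
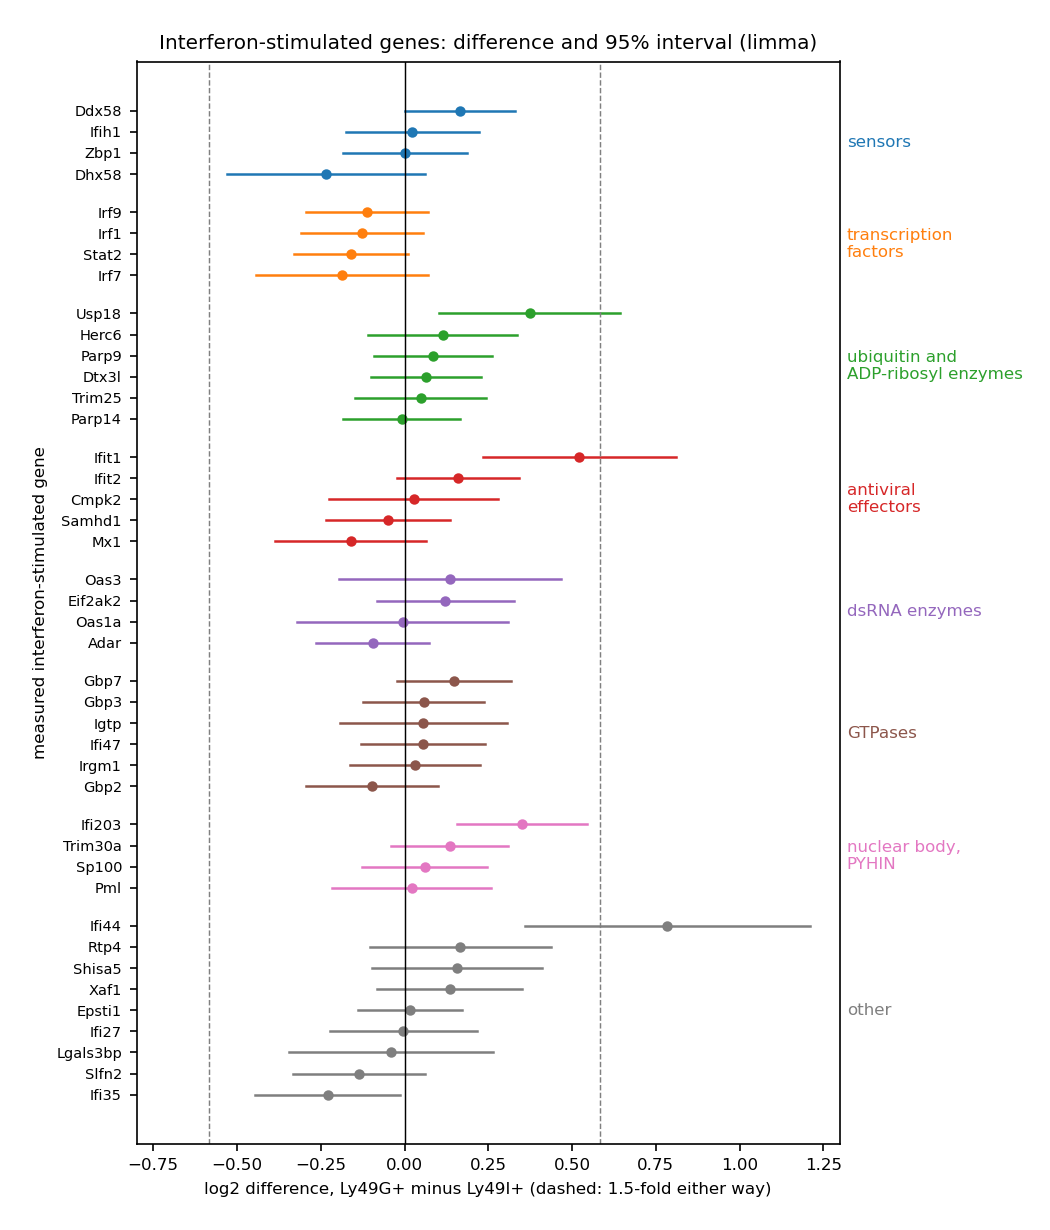
Log2 difference (Ly49G+ minus Ly49I+) of each of the 42 measured interferon-stimulated genes on the horizontal axis, grouped by role, with points for the estimate and lines for the 95% interval of the limma fit to 3 libraries per group. Ifi44 (0.78), Ifit1 (0.52), Usp18 (0.37) and Ifi203 (0.35) lie farthest to the right, and the 4 transcription factors all lie left of 0.

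Ifi44, a cytoplasmic protein known chiefly as an interferon-induced marker, had the largest difference (gene 99899, chromosome 3, 151730922 to 151749910). Its level in the Ly49G+ replicates, in the order 1, 2 and 3 kept throughout, was 11.6, 10.1 and 9.48 CPM, and in the Ly49I+ replicates 6.86, 6.13 and 5.14 CPM. All Ly49G+ libraries were above all Ly49I+ libraries, and replicate 3 was lowest in both groups. Every gene in the table has a second-highest library value of at least 10.0 CPM, and Ifi44 reached that only in Ly49G+ replicates 1 and 2. Its place in the table thus rests on Ly49G+, so its direction and gap are not independent of how genes came to be listed. The difference was 0.78 ± 0.19 (SE, n = 3 per group), a ratio of 1.72 with a 95% interval of 1.28 to 2.31 (limma adjusted p = 0.0526, and 0.016 with the replicate block). Over the 13 alternatives that include it the adjusted p ran from 0.016 to 0.188, and the difference was 1.54 with quantile normalization.

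Ifit1 encodes a protein that binds viral RNA lacking the host cap modification (gene 15957, chromosome 19, 34640889 to 34650009). Its level was 18.9, 17.0 and 19.4 CPM in the Ly49G+ replicates and 13.1, 13.9 and 11.6 CPM in the Ly49I+ replicates. The groups did not overlap, and the gap between the lowest Ly49G+ and the highest Ly49I+ library was wider than the spread of either group. The difference was 0.52 ± 0.13 (limma adjusted p = 0.0548, 0.026 with the replicate block, and 0.026 to 0.177 over 13 alternatives). Of its 100-base transcript windows 3.29% are shared with another gene, Ifit1bl2.

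Ifi203, a member of the PYHIN family of nuclear proteins, was the most abundant of the 4 (gene 15950, chromosome 1, 173920400 to 173942866). It stood at 501, 501 and 464 CPM in Ly49G+ and at 429, 379.8 and 344 CPM in Ly49I+. The groups did not overlap, and replicate 3 was again the lowest in each. The difference was 0.35 ± 0.09 (limma adjusted p = 0.0562, 0.00424 with the replicate block, and 0.00424 to 0.249 over 14 alternatives). It shares 2.84% of its transcript windows with Ifi203-ps and Mndal, and the sources used here do not give how shared reads were counted, so its level carries that uncertainty. Mndal, a PYHIN neighbour outside the 42, had a mean of 765.5 CPM in Ly49G+ and 626 CPM in Ly49I+ (0.29 ± 0.10, limma adjusted p = 0.141, and 0.0105 with the replicate block).

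Usp18 removes ISG15 from proteins and dampens signalling from the type I interferon receptor (gene 24110, chromosome 6, 121245906 to 121270917). It was at 17.7, 18.8 and 17.3 CPM in Ly49G+ and at 14.4, 14.5 and 12.7 CPM in Ly49I+. The groups did not overlap, but the difference of 0.37 ± 0.12 did not pass (limma adjusted p = 0.129, and 0.0690 to 0.379 over 13 alternatives).

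**Figure D2:**
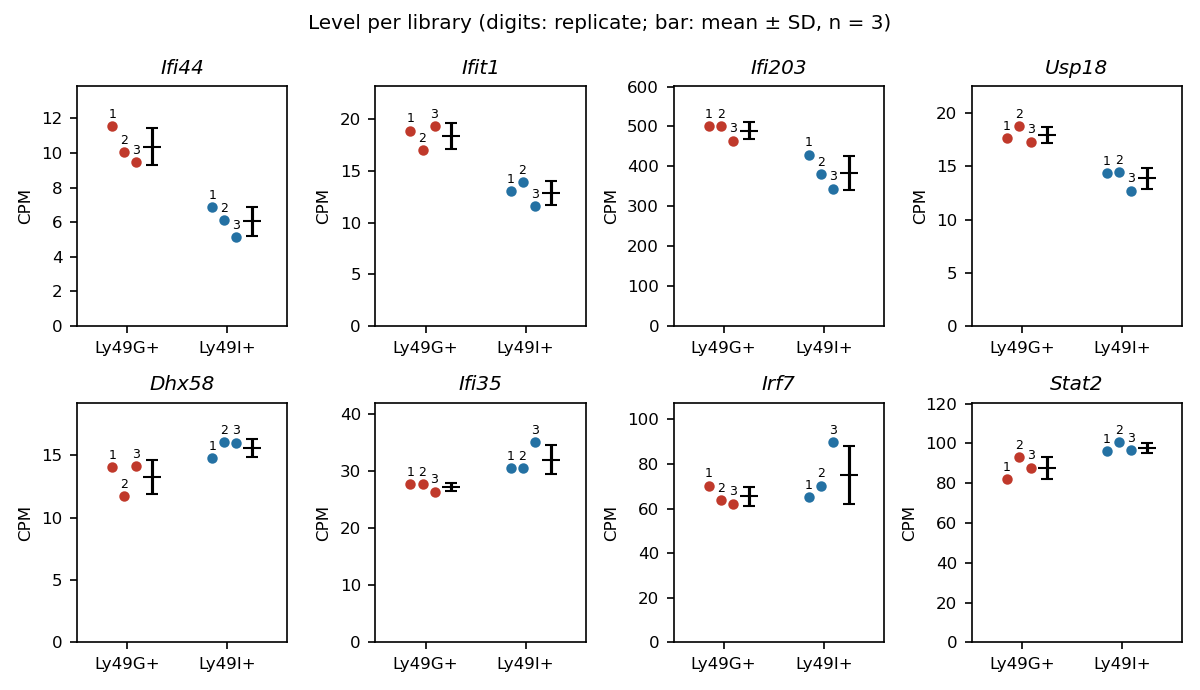
Level in CPM (vertical axes, each starting at 0) of 8 interferon-stimulated genes in each library, with digits for the replicate and bars for the mean ± SD of 3 libraries. Ifi44, Ifit1, Ifi203 and Usp18 have all Ly49G+ points above all Ly49I+ points, Dhx58, Ifi35 and Stat2 have the reverse, and Irf7 overlaps, with its highest point (89.6 CPM) in Ly49I+ replicate 3.

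Groups did not overlap for 9 of the 42 genes (21.4%), against 25.8% of all genes. In 6 of them (14.3%) Ly49G+ was above (12.5% of all genes), namely the 4 just described, Ddx58 and Ifit2, and in the other three Ly49I+ was above (13.4% of all genes), namely Ifi35, Stat2 and Dhx58. So a gap between the groups was not more frequent among the members than in the table. The direction of Ifi44 is not independent of how genes came to be listed, as described above.

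Of the sensors, Ddx58 encodes RIG-I and Ifih1 encodes MDA5, cytoplasmic receptors for viral RNA. Dhx58 encodes LGP2, a relative of both that lacks their signalling domain, and Zbp1 senses Z-form nucleic acid. Ddx58 stood at 286, 309 and 287 CPM in Ly49G+ and 279, 263 and 245 CPM in Ly49I+, a difference of 0.17 ± 0.07 (limma adjusted p = 0.252). Dhx58 had 14.1, 11.7 and 14.1 CPM in Ly49G+ and 14.8, 16.0 and 16.0 CPM in Ly49I+, a difference of -0.24 ± 0.13 (limma adjusted p = 0.34). This was the largest toward Ly49I+ as reported, but without Ly49G+ replicate 2 it was -0.15, smaller than that of Ifi35 (-0.24), and with quantile normalization it was -0.18 against -0.20 for Ifi35. Thus these 2 helicase relatives had means in opposite order, both without passing, and a test of one against the other was not made. Ifih1 (0.02, 95% interval -0.18 to 0.22) and Zbp1 (0.00, -0.18 to 0.19) had narrow intervals around 0.

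The 4 transcription factors of the response all had the higher mean in Ly49I+, with differences of -0.19 to -0.11, and 0 of the 4 passed. Irf7, which drives interferon production and the later response, stood at 70.2, 63.8 and 62.2 CPM in Ly49G+ and at 65.2, 70.3 and 89.6 CPM in Ly49I+. Its difference of -0.19 ± 0.12 (limma adjusted p = 0.385) overlapped between groups and was -0.05 without Ly49I+ replicate 3. Stat2, a part of the complex that carries the receptor's signal, did not overlap, at 81.9, 92.9 and 87.8 CPM against 96.0, 100.4 and 96.7 CPM (-0.16 ± 0.08, limma adjusted p = 0.273). Irf9, the DNA-binding part of that complex, had 95.6, 92.2 and 88.5 CPM in Ly49G+ and 94.4, 95.8 and 109 CPM in Ly49I+. Irf1, which both interferon types induce, had 264, 300.3 and 268 CPM and 305, 280.2 and 325 CPM. Irf7, Irf9 and Irf1 were each highest in Ly49I+ replicate 3 of all 6 libraries.

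Among the 6 measured genes of ubiquitin-like and ADP-ribosylating enzymes, 5 had differences above 0 and 0 passed. After Usp18 the largest was Herc6, the mouse ligase for ISG15, at 0.11 ± 0.10. It shares 10.3% of its transcript windows with Gm45193. It was level at 81.7, 78.7 and 76.0 CPM in Ly49G+ and 81.5 and 75.4 CPM in Ly49I+ replicates 1 and 2, and lower at 62.8 CPM in Ly49I+ replicate 3. Parp9 and Dtx3l, whose products act as a pair, differed by 0.08 and 0.06, Trim25, the ligase that modifies RIG-I, by 0.05, and Parp14 by -0.01. Parp9 and Dtx3l overlap on opposite strands over 9.40% and 8.0% of their exon length, and the sources used here do not give whether strand was used in counting.

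Of the other antiviral effectors, Ifit2, a relative of Ifit1, had 71.7, 76.7 and 67.8 CPM in Ly49G+ and 66.3, 66.1 and 61.1 CPM in Ly49I+ (0.16 ± 0.08, limma adjusted p = 0.304). Mx1, a dynamin-like GTPase, had 28.0, 32.8 and 27.4 CPM against 33.5, 33.4 and 31.3 CPM (-0.16 ± 0.10, limma adjusted p = 0.393). Its groups overlapped and its mean was higher in Ly49I+. Samhd1, which depletes nucleotides, differed by -0.05, and Cmpk2, a mitochondrial nucleotide kinase, by 0.03. The enzymes that make or act on double-stranded RNA signals spanned -0.10 to 0.14, with 2 of 4 differences above 0. They were Oas3 and Oas1a, which synthesise 2-5A to activate RNase L, Eif2ak2 (PKR), which halts translation, and Adar, which edits double-stranded RNA. Oas1a shares 40.9% of its transcript windows with Oas1g and its level is uncertain.

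The 6 interferon-inducible GTPases, which act on the vacuoles of intracellular pathogens, differed by -0.10 to 0.15. The largest was Gbp7, which shares 10.0% of its transcript windows with Gm43802 and Gbp3, at 458, 450.5 and 446 CPM in Ly49G+ and 446, 399 and 379 CPM in Ly49I+ (0.15 ± 0.08, limma adjusted p = 0.305). Here Ly49I+ replicate 1 reached the lowest Ly49G+ level and the other two lay below it. Gbp2 was the 1 with the higher mean in Ly49I+ (-0.10), while Gbp3 (0.06), Igtp (0.06), Ifi47 (0.05) and Irgm1 (0.03) lay near 0. In the nuclear group with Ifi203, Trim30a, a regulator of inflammatory signalling, differed by 0.14, Sp100, a nuclear body protein, by 0.06, and Pml, which scaffolds those bodies, by 0.02.

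Of the remaining members Ifi35, a leucine zipper protein, had the second largest difference toward Ly49I+, with 27.6, 27.6 and 26.4 CPM in Ly49G+ and 30.4, 30.5 and 34.9 CPM in Ly49I+ (-0.23 ± 0.10, limma adjusted p = 0.23). Its groups did not overlap, and 16.8% of its exon length lies opposite another annotated gene, Gm11626. Rtp4, a receptor chaperone (0.17), Shisa5 (0.16), Xaf1, a promoter of apoptosis (0.14), Epsti1 (0.02), Ifi27 (-0.00), Lgals3bp (-0.04) and the Schlafen gene Slfn2 (-0.14) did not pass. Rtp4 shares 9.28% of its transcript windows with Gm45338.

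Per kilobase of annotated exon (GENCODE M21) the mean level ran from 1.34 to 598 CPM, with a median of 17.3 CPM. Shisa5, a membrane protein of the endoplasmic reticulum, was highest, with library levels of 1963, 1951 and 2309 CPM in Ly49G+ and 1562, 2058 and 1984 CPM in Ly49I+. Epsti1 was next at 195 CPM per kilobase, with 469, 453 and 445 CPM against 478, 429 and 446 CPM per library. Ifi44 was lowest, and Oas3 next at 4.01 CPM per kilobase, with 28.9, 25.8 and 34.3 CPM against 22.9, 32.7 and 25.7 CPM per library. The gene with the largest ratio, Ifi44, was also the least abundant for its length, but its place in the table rests on Ly49G+. Its low level and its ratio are therefore not independent of each other. The groups of these other 3 overlapped.

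Across libraries the members' lowest values were most often in Ly49I+ replicate 3. It held the lowest value of 22 of the 42 genes (52.4%), against 24.4% of all genes, and the highest of 7 (16.7%), against 27.8% of all genes. Over all genes it was thus both the most frequent lowest and the most frequent highest library. In it 12 of the 42 (28.6%) were above their Ly49I+ mean, against 49.7% of all genes. The median deviation of the members from their Ly49I+ mean was 0.02, 0.04 and -0.06 in replicates 1, 2 and 3, and -0.01, -0.00 and -0.00 for all genes. Within Ly49G+ it was -0.01, 0.01 and -0.02. The number lowest in this library was 23 of 42 after median scaling and 21 of 42 after quantile normalization, against 29.8% and 28.6% of all genes.

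**Figure D3:**
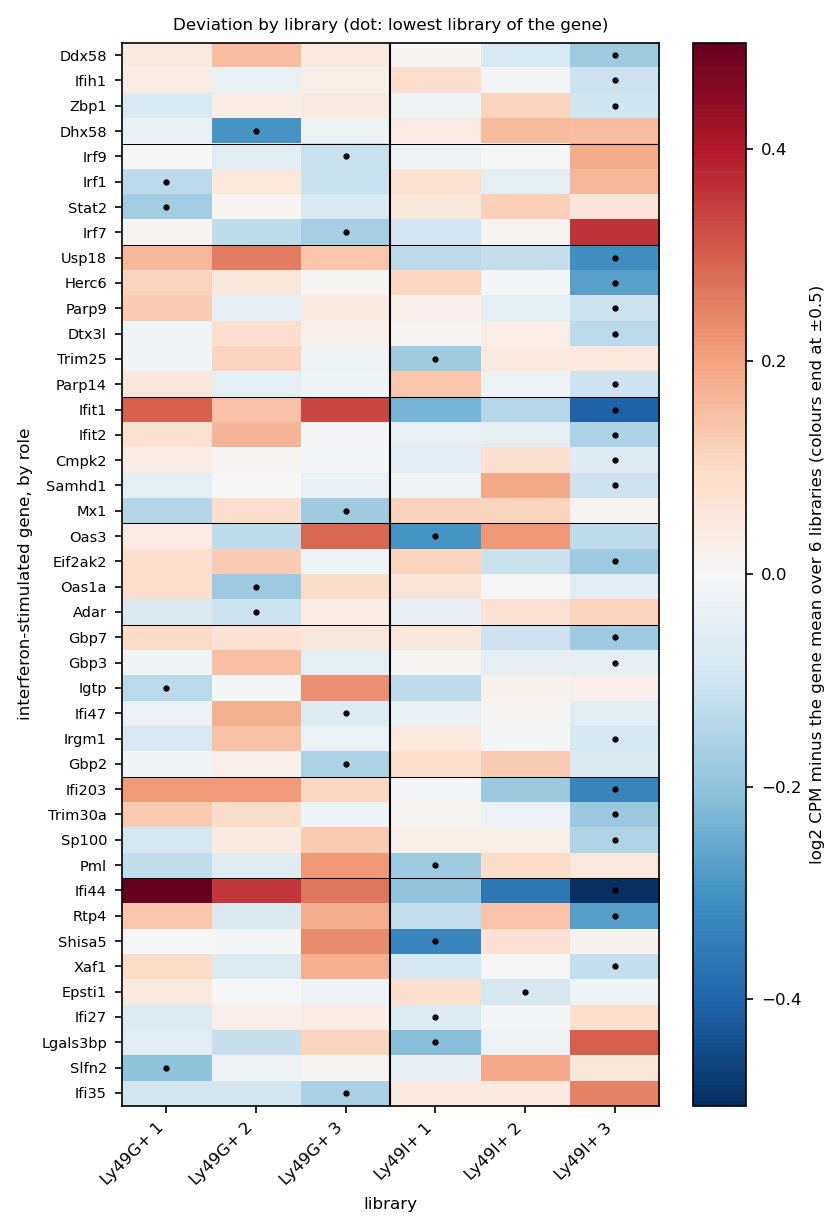
Deviation of log2 CPM from each gene's mean over the 6 libraries (colour, ending at ±0.5) for the 42 genes in rows by role, with libraries in columns and a dot on each gene's lowest library. The dots gather in Ly49I+ replicate 3, where the 4 transcription factors have none.

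By role, Ly49I+ replicate 3 was the lowest library for 5 of 6 ubiquitin-like and ADP-ribosylating enzymes, 4 of 5 antiviral effectors, 3 of 4 sensors, 3 of 4 nuclear proteins and 3 of 6 GTPases, where the share over all genes was 24.4%. It was lowest for 1 of 4 double-stranded RNA enzymes, 2 of which were lowest in Ly49G+ replicate 2, and for 3 of the 9 remaining members. For the transcription factors it was lowest for 0 of 4 and highest for 3. The other members highest there were Lgals3bp, a secreted glycoprotein (31.0 CPM), Ifi35 (34.9 CPM), Ifi27 (25.7 CPM) and Adar (185 CPM). These groupings were read from the values and have no test. In this library the summed level of the monocyte, macrophage and dendritic cell markers without Itgax (259 CPM) was the lowest of Ly49I+, and that of the defining NK markers (17731 CPM) was the highest. Their part in these low values was not tested. Of 54 other interferon-inducible genes, a list of different genes from the same libraries, 21 (38.9%) were lowest in it.

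**Figure D4:**
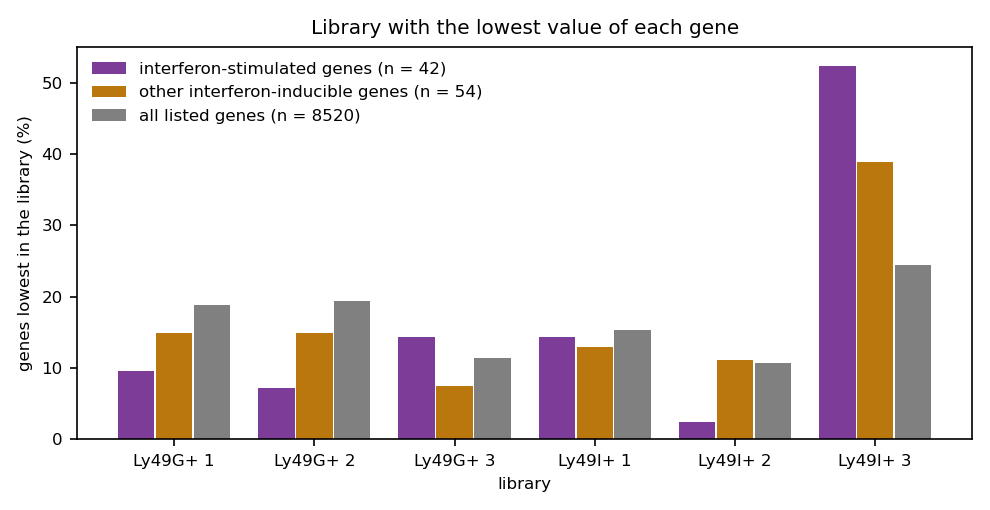
Percent of genes (vertical axis, from 0) whose lowest value lies in each library, for the 42 interferon-stimulated genes, 54 other interferon-inducible genes and all 8520 genes. Ly49I+ replicate 3 holds 52.4%, 38.9% and 24.4%.

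The median SD within a group was 0.10 on the log2 scale over the 42 genes, against 0.12 over all genes.

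Around the members, the interferon receptors and their signalling genes had 0 of 17 measured genes past the limma test, against 3.59% of all genes. By unadjusted p 2 were under 0.05 (11.8%, against 19.8% of all genes), and the groups did not overlap for 6 (35.3%, against 25.8%). Of these 6, 4 were higher in Ly49G+ (12.5% of all genes) and 2 in Ly49I+ (13.4% of all genes). Differences over the 17 ran from -0.26 to 0.27, and the smallest limma adjusted p was 0.162. The receptor chain gene Ifnar1 had means of 214 CPM in Ly49G+ and 223 CPM in Ly49I+, and Ifnar2 of 143 and 139 CPM. The kinase gene Tyk2 stood at 306, 297 and 301 CPM in Ly49G+ and at 337, 329.6 and 424 CPM in Ly49I+, with no overlap (-0.26 ± 0.10, limma adjusted p = 0.175, and 0.0421 with the replicate block). Ifng, the type II interferon that NK cells secrete, was the 1 interferon gene measured, with means of 225 and 213 CPM (0.08 ± 0.09).

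Of 19 measured genes of nucleic acid sensing and interferon induction 1 passed, higher in Ly49I+, and of 54 other interferon-inducible genes 2 passed, both higher in Ly49I+, against 1.77% of all genes in that direction. Over these lists and the receptor and interferon genes together 3 of 91 passed, where 3.59% of all genes did. With the replicate block 3 were higher in Ly49G+ and 8 in Ly49I+, where 5.69% and 5.96% of all genes were. The endosomal RNA sensor gene Tlr7 stood at 2.87, 1.90 and 5.37 CPM in Ly49G+ and 12.9, 43.5 and 9.34 CPM in Ly49I+ (-2.50 ± 0.53, limma adjusted p = 0.0277). Ifitm3, which blocks virus entry, stood at 0.253, 1.29 and 2.64 CPM against 11.6, 39.0 and 8.06 CPM (-4.02 ± 0.80, limma adjusted p = 0.0204). Every gene in the table has a second-highest library value of at least 10.0 CPM, and Tlr7 and Ifitm3 reached that only in Ly49I+ replicates 1 and 2. They are thus listed through Ly49I+ alone, and their direction is not independent of that. Both were highest in Ly49I+ replicate 2, as was the summed level of the monocyte, macrophage and dendritic cell markers, whose part in this was not tested. Ly6c2, also a marker of mature NK cells, had a different profile, at 122, 136 and 94.1 CPM against 255, 244 and 261 CPM (-1.13 ± 0.12, limma adjusted p = 0.000812). The count of the 91 higher in Ly49I+ was 1 without Ly49G+ replicate 2 or without Ly49I+ replicate 2, and 6 without Ly49I+ replicate 1.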

How the data were processed

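Per the labels' protocols, 0.4 µg of total RNA went into each stranded library, read as pairs of 100 bases. The submitters' processing notes name build mm10, CASAVA 1.8.2, STAR 2.3.0 and limma. No source used here gives the counter, the annotation or the low-value filter. The authors deposited log2 CPM per gene. These values follow voom's formula (0.5 added to each count), and solving it gave whole reads within 0.001 read for 100% of values, with no scaling between libraries beyond the total. The second-highest library value was at least 10.0 CPM for all 8520 genes.

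Genes were matched by number to RefSeq (GRCm38.p6), which named 8429 of 8520 and all 42 members. The test was a linear model with an intensity trend, fitted to the authors' log2 values (limma 3.58.1, R 4.3.3), two-sided, with Benjamini-Hochberg adjustment over all 8520 genes at 0.05. The steps were tested on simulated data. Python 3.11.15 and pandas 2.3.3 handled tables. Replicate numbers come from the labels. Deviations from the group means correlated over genes at 0.37, 0.114 and 0.16 between same-numbered libraries. Ly49G+ replicate 3 and Ly49I+ replicate 2 reached 0.36, and Ly49G+ replicate 2 and Ly49I+ replicate 1 reached 0.115. The correlations therefore do not show that the numbers mark pairs. A fit with the number as a block was run as an alternative only. Named genes are the 3 largest differences in each direction, those passing in an alternative, the 2 highest and 2 lowest levels, and up to 3 per role. The members and lists were chosen with earlier results of these data known.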

Additional observations from a re-analysis of the deposited data

How the results depend on the processing

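The count of interferon-stimulated genes past the limma test was 0 as reported. It was 2 with median scaling, with quantile normalization and without the intensity trend (Ifit1 and Ifi44 each time), 3 with the robust prior and with the replicate block (Ifi203, Ifit1 and Ifi44 each time) and 1 with voom weights (Ifi44). Leaving out single libraries gave 0 to 2, the 2 (Ifi203 and Ifi44) without Ly49I+ replicate 1. All these were higher in Ly49G+, and the count higher in Ly49I+ was 0 under all 14 alternatives. Ifi44 is in every count above 0, and its place in the table rests on Ly49G+, so its direction is not independent of that. The median member difference ran from 0.02 to 0.07. Over all genes the counts of 155 and 151 higher in Ly49G+ and Ly49I+ became 485 and 508 with the replicate block, 96 were higher in Ly49I+ with a minimum mean of 4, and leaving out single libraries gave 45 to 297 and 49 to 347, lowest without Ly49G+ replicate 2 and highest without Ly49I+ replicate 1. For the other interferon genes the replicate block gave 3 and 8, and 1 was higher in Ly49I+ without the trend, with the robust prior and with the minimum mean. Leaving out single libraries gave 0 to 1 and 1 to 6. Ifi44, Ifit1, Usp18, Dhx58 and Oas1a have a mean under 4 and were not tested there. The cause was not tested. With 3 libraries per group, the 95% intervals show the sizes of difference that remain possible.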
